A study of Mus musculus with 6 samples.

Results

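The transcripts described here are those of the platelet-derived growth factor (PDGF) family. They are the 4 ligand genes Pdgfa, Pdgfb, Pdgfc and Pdgfd and the 2 receptor genes Pdgfra and Pdgfrb. All 6 were found by symbol among the 17933 genes of the deposited expression table. RNA came from whole kidney of wild-type male C57BL/6 mice, aged 6 to 8 weeks and weighing 24 to 26 g. The stone group of 3 samples came from mice injected into the peritoneum each day with 120 mg/kg of glyoxylic acid for 12 days. Glyoxylic acid is turned into oxalate in the body and is used to form calcium oxalate crystals in the kidney. The control group of 3 samples came from mice given the same volume of saline. The labels do not say that each sample is a separate mouse, so the p-values measure sample-to-sample spread alone, and that spread may be technical. Markers of the proximal tubule, thick limb and collecting duct (Lrp2, Umod and Aqp2) were well above 0 in all 6 samples, with the lowest value of the 3 genes at 66.0 FPKM. FPKM are fragment counts scaled to gene length and to the library's total, so levels can be compared between genes.

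PDGF ligands are secreted dimers that draw in mesenchymal cells and make them divide. The PDGF-A and PDGF-B chains are cut to their active form inside the cell, whereas PDGF-C and PDGF-D are secreted with an inhibitory CUB domain that proteases remove outside the cell. Receptor alpha binds the A, B and C chains, and receptor beta binds chiefly the B and D chains. Both are tyrosine kinases. In the kidney, PDGF-B made by endothelium recruits the mesangial cells and pericytes that carry receptor beta, and both receptors are used to mark interstitial fibroblasts and pericytes.

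In stone kidneys 5 of the 6 PDGF transcripts rose and Pdgfc did not pass the test. Pdgfb, Pdgfrb and Pdgfra stood at 2.97, 3.03 and 2.98 times their control means, Pdgfa at 2.20 times and Pdgfd at 1.63 times. The calls are from limma on log2(FPKM + 1) with Benjamini-Hochberg adjustment over the 12319 genes averaging 1 FPKM or more, at an adjusted p below 0.05, and all 6 members passed that filter. By the same test 43.5% of all tested genes were called higher and 13.9% lower, 57.4% in either direction. The stone values of the same 5 members lay wholly above the control values, which was so for 49.8% of tested genes. In RNA from whole tissue, a change in how many cells make a transcript and a change in RNA per cell cannot be told apart.

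**Figure D1:**
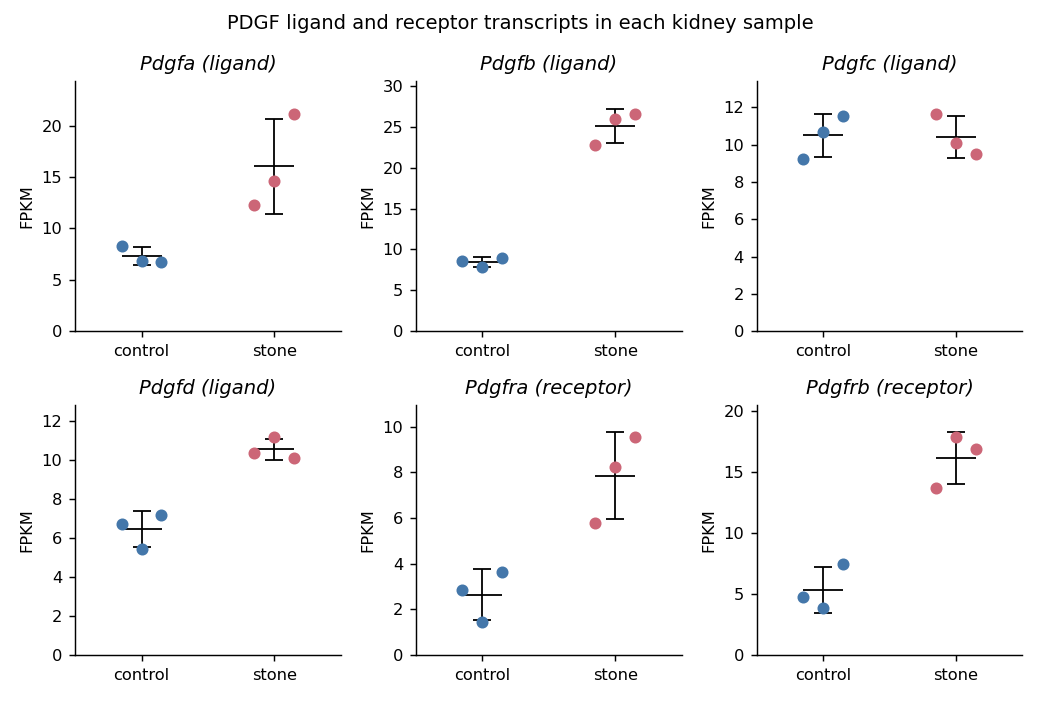
FPKM of each PDGF gene (vertical axes, from 0) in the 3 control samples (blue) and 3 stone samples (red), in replicate order from left to right, with the mean and SD in black. The groups are apart for 5 genes, and overlap for Pdgfc at means of 10.5 and 10.4 FPKM.

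The number of genes called in each direction depended on how the libraries were scaled. FPKM sums ran from 711768 to 758514 in control samples and from 609705 to 613885 in stone samples. The proximal tubule gene Kap held 19.3% to 23.2% of the control sums and 1.18% to 2.26% of the stone sums. Over all tested genes the median log2 fold change stood at 0.21 as deposited, and median-of-ratios size factors, which centre most genes on no change, shifted it by -0.22. With those size factors 22.5% of tested genes were called higher and 26.2% lower, after quantile normalization 22.4% and 25.3%, and with equal FPKM sums 68.5% and 6.47%. The same 5 members were called higher under each of these 3 scalings.

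Pdgfb, the ligand that binds both receptors, had the clearest change of the family. It is a minus-strand gene of chromosome 15 (79995865 to 80024614), in RefSeq coordinates of GRCm38.p6 that are used for the other genes too. The control samples measured 8.54, 7.81 and 8.98 FPKM of Pdgfb, in replicate order as throughout, and the stone samples 22.8, 25.9 and 26.6 FPKM. The samples of each group were tightly grouped and the lowest stone sample was above the highest control sample. Pdgfb means were 8.44 ± 0.591 against 25.1 ± 2.04 FPKM (SD, n = 3 each). The log2 fold change of Pdgfb was 1.47 ± 0.084 (SE; limma, adjusted p = 3.36e-05), and 1.23 with median-of-ratios factors (limma, adjusted p = 2.51e-05). Ranked by p, Pdgfb stood at position 131 of the tested genes, and its change was larger than that of 96.8% of them.

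Pdgfa, whose product signals through receptor alpha, had a smaller log2 fold change than Pdgfb and a wider spread in stone samples. The ratio of Pdgfa to Pdgfb, given below, was not shown to differ between the groups. Pdgfa is a minus-strand gene of chromosome 5 (138976014 to 139000792). The control samples measured 8.30, 6.87 and 6.69 FPKM and the stone samples 12.3, 14.6 and 21.2 FPKM. Stone sample 3 was well above the other stone samples, and the groups did not overlap. Pdgfa means were 7.29 ± 0.882 and 16.0 ± 4.59 FPKM (SD, n = 3 each), so that the SD was 28.6% of the mean in stone kidneys and 12.1% in controls. The log2 fold change was 1.01 ± 0.183 (SE; limma, adjusted p = 0.00325), 0.78 with median-of-ratios factors and 0.80 without stone sample 3.

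Of the ligands that need cleavage outside the cell, Pdgfd was called higher and Pdgfc was not. Their ratio, compared between groups below, did not pass. Pdgfd, which encodes a ligand of receptor beta, lies on chromosome 9 from 6168363 to 6534284 on the plus strand. Pdgfd measured 6.72, 5.43 and 7.18 FPKM in control samples and 10.3, 11.1 and 10.1 FPKM in stone samples. All stone samples were above all controls, and the stone samples were closer together (SD of 0.552 FPKM) than the controls (SD of 0.907 FPKM). Its log2 fold change of 0.64 ± 0.103 (SE) was the smallest of the 5 that passed (limma, adjusted p = 0.00203), and with median-of-ratios factors it was 0.41 (limma, adjusted p = 0.0103).

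Pdgfc, which encodes a ligand of receptor alpha, lies on chromosome 3 from 81036416 to 81214040 on the plus strand. It measured 9.24, 10.7 and 11.6 FPKM in control samples and 11.7, 10.1 and 9.48 FPKM in stone samples. The groups overlapped, with 1 stone sample just above the controls and the others among them. The Pdgfc log2 fold change was -0.01, with a 95% interval from -0.26 to 0.24 (limma, adjusted p = 0.938). The sign of this value depended on scaling, at -0.24 with median-of-ratios factors, -0.29 after quantile normalization and 0.24 with equal FPKM sums, and in none of these did it pass (limma, adjusted p = 0.12, 0.0899 and 0.0935).

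Both receptor genes rose, from low control levels with wide spread. Pdgfrb, on the plus strand of chromosome 18, encodes receptor beta. It measured 4.73, 3.85 and 7.43 FPKM in control samples and 13.7, 17.9 and 16.9 FPKM in stone samples. Control sample 3 was the highest control, yet every stone sample was well above it. Pdgfrb means were 5.34 ± 1.87 and 16.2 ± 2.16 FPKM (SD, n = 3 each). Its log2 fold change was 1.47 ± 0.203 (SE; limma, adjusted p = 0.00103), and 1.24 with median-of-ratios factors (limma, adjusted p = 0.0015).

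Pdgfra, encoding receptor alpha, lies on chromosome 5 from 75151322 to 75198206 on the plus strand and was the lowest member in both groups. It measured 2.85, 1.44 and 3.63 FPKM in control samples and 5.78, 8.25 and 9.54 FPKM in stone samples. All stone samples were above all controls, and control sample 2 was well below the other controls. Pdgfra had the widest spread of the family in controls, with an SD of 42% of the mean, and the widest standard error of the change. Its log2 fold change was 1.31 ± 0.258 (SE; limma, adjusted p = 0.00459), 1.11 with median-of-ratios factors and 1.04 without control sample 2.

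**Figure D2:**
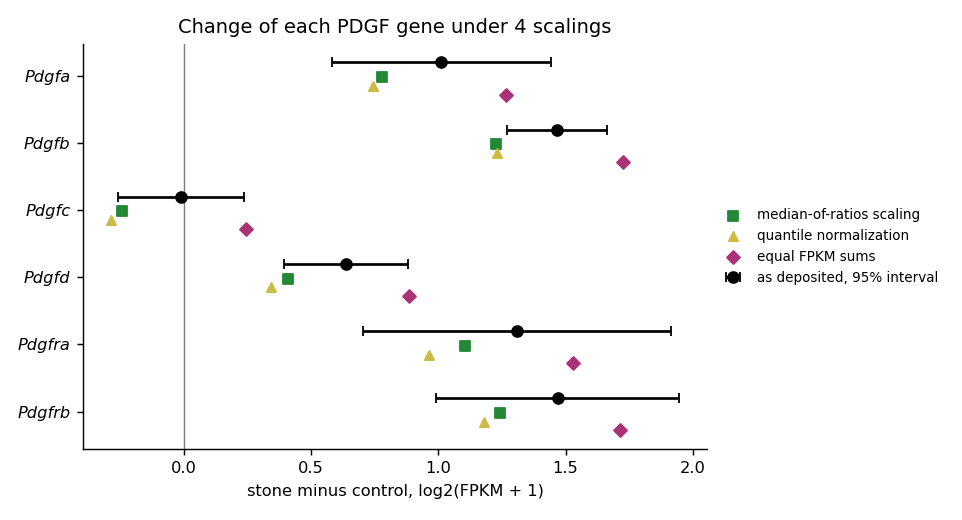
Log2 fold change of each PDGF gene on log2(FPKM + 1) values (horizontal axis), as deposited with its 95% interval from limma (black) and under 3 other scalings. Every point of Pdgfa, Pdgfb, Pdgfd, Pdgfra and Pdgfrb is above 0, while Pdgfc runs from -0.29 to 0.24.

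Start sites were looked up for the family, and those found belonged to 3 genes that rose and to Pdgfc, which did not pass. The RefSeq table (GRCm38.p6) held the 250 bases before a start for 4 members, with 2 starts for Pdgfa. Printed below, 5′ to 3′ on the gene's strand, is the longest unbroken stretch of each window that lies in no GENCODE exon of any gene, ending before the first base of the RefSeq gene where that falls in the window. Of the 2 Pdgfa starts, the one with the longer such stretch is shown. The Pdgfa and Pdgfra stretches lie inside the spans given above, before a start that is not the outermost, and those of Pdgfc and Pdgfd lie before the first base of the gene. Capitals mark GC boxes (GGGCGG) and TATA boxes (TATAAA), searched on both strands.
Pdgfa, chr5:138994282-138994398, minus strand: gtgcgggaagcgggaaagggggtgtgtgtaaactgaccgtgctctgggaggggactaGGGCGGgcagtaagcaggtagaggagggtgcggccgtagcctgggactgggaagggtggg
Pdgfc, chr3:81036166-81036415, plus strand: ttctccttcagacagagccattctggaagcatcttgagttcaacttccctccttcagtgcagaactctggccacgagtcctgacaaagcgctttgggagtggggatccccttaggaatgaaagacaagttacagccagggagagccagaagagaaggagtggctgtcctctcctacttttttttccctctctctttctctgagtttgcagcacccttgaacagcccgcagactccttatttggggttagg
Pdgfd, chr9:6168236-6168362, plus strand: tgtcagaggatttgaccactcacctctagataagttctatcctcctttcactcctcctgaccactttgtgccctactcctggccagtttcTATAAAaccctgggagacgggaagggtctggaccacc
Pdgfra, chr5:75152001-75152250, plus strand: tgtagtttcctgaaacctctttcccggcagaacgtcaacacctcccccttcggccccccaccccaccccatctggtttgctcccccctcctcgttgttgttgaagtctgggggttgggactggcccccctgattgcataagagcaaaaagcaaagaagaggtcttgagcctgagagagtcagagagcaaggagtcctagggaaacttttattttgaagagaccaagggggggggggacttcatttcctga

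In the full windows of 250 bases, Pdgfa had 1 GC box before the start shown and 2 before the other, and the other members had 0. Among the windows of all genes, 32851 in number, 32.7% held a GC box. Pdgfd alone held a TATA box, as did 12.4% of all windows. The AP-1 motif (TGANTCA, in 6.75% of all windows) and the EGR1 motif (GCGNGGGCG, in 4.7%) had 0 matches in these 5 windows. EGR1 letters can overlap a GC box. GC content was 50.8% to 54.4% for Pdgfc, Pdgfd and Pdgfra and 66.4% and 72.4% for the 2 Pdgfa windows. A match is a description of these letters and not a site that is used.

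The samples within a group were not ordered alike for the whole family. Among controls, sample 2 was the lowest for Pdgfb, Pdgfd, Pdgfra and Pdgfrb, and sample 3 was the highest for every member but Pdgfa. Among stone samples, sample 1 was the lowest for Pdgfa, Pdgfb, Pdgfra and Pdgfrb but the highest for Pdgfc. With 3 samples in a group these orders are a description.

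The order of levels changed between the groups. In control kidneys Pdgfc was the most abundant member, followed by Pdgfb, Pdgfa, Pdgfd, Pdgfrb and Pdgfra. Pdgfc did not overlap with Pdgfb, and Pdgfrb did not overlap with Pdgfra, whereas the ranges of the other neighbours in that order overlapped. In stone kidneys Pdgfb was the most abundant, above the range of Pdgfrb. Pdgfrb and Pdgfa followed with means of 16.2 and 16.0 FPKM and overlapping ranges. Pdgfd, Pdgfc and Pdgfra came last, and each of these overlapped with its neighbour in this order. Compared with all tested genes, Pdgfb went from a control mean above 44.5% of them to a stone mean above 70.4%, and Pdgfra from 17.7% to 35.9%.

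Shares within the family do not change when a whole library is multiplied by a factor. Pdgfb made up 26.0%, 25.4% and 26.1% of the summed ligand FPKM in control samples and 39.9%, 42.0% and 39.5% in stone samples 1 to 3. Pdgfc made up 28.2%, 34.7% and 33.6% in controls and 20.4%, 16.3% and 14.1% in stone samples. Both shares were apart between the groups, in opposite directions. The ligand shares of a sample add up to a fixed total, so they are not independent of each other. Pdgfc itself had means of 10.5 FPKM in controls and 10.4 FPKM in stone samples. The shares of Pdgfa (19.4% to 25.3% in controls, 21.6% to 31.4% in stone samples) and of Pdgfd (from 17.6% up in controls, up to 18.1% in stone samples) overlapped.

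Of 4 ratios compared between groups, those of Pdgfc to Pdgfd and of summed ligands to summed receptors did not overlap. The log2 ratio of Pdgfc to Pdgfd was 0.46, 0.98 and 0.69 in control samples and 0.17, -0.15 and -0.09 in stone samples 1 to 3, a difference of -0.73. Ligand FPKM summed to 32.7 ± 1.81 in controls and 62.0 ± 5.13 in stone kidneys, and receptor FPKM to 7.98 ± 2.91 and 24.0 ± 3.91 (SD, n = 3 each). There were 4.33, 5.82 and 3.11 ligand FPKM per receptor FPKM in control samples and 2.93, 2.36 and 2.55 in stone samples 1 to 3. On the log2 scale that ratio differed by -0.72. For each of these 2 ratios the exact two-sided permutation test gave p = 0.1, the smallest that 3 against 3 samples allow, and 0.2 after Benjamini-Hochberg adjustment over the 4 ratios, so neither passed.

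The balance of the other pairs was not shown to differ. The log2 ratio of Pdgfa to Pdgfb averaged -0.22 ± 0.194 in controls and -0.68 ± 0.305 in stone kidneys (SD, n = 3 each; exact permutation p = 0.2, adjusted p = 0.267), with overlapping values. The log2 ratio of Pdgfra to Pdgfrb averaged -1.06 in both groups, with SDs of 0.345 and 0.216 (exact permutation p = 1, adjusted p = 1). Receptor beta held 62.4% to 72.8% of receptor FPKM in controls and 63.9% to 70.4% in stone samples. Leaving out each sample in turn put the difference in the Pdgfra to Pdgfrb ratio between -0.18 and 0.16.

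**Figure D3:**
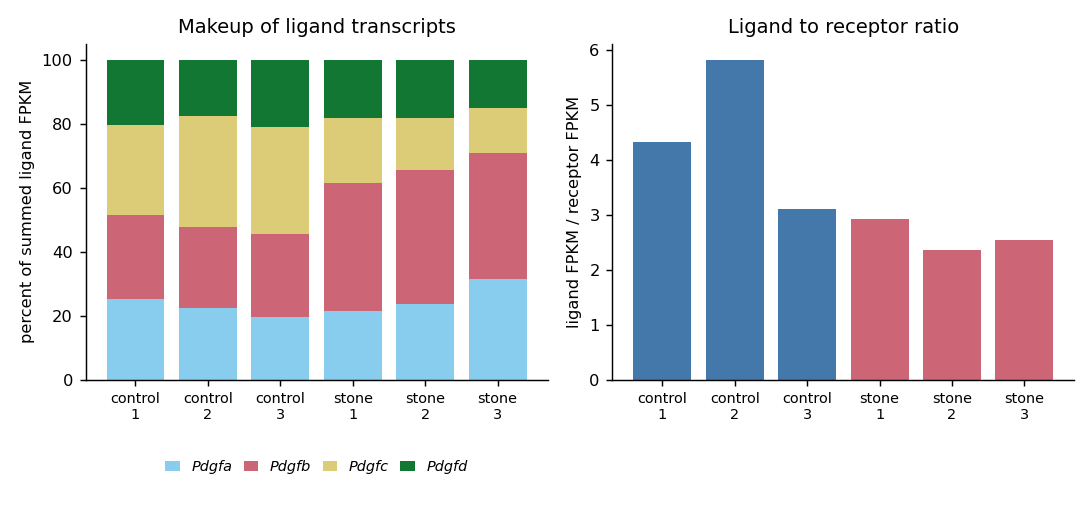
Left, percent of summed ligand FPKM held by each PDGF ligand in each sample; right, summed ligand FPKM divided by summed receptor FPKM in each sample (control blue, stone red). The Pdgfb share is about 40% in stone samples against 26% in controls, and the ratio on the right is below 3 in every stone sample and above 3 in every control.

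Among 11 tested genes for PDGF-activating proteases, co-receptors and binding proteins, 7 rose and 1 fell. Of all tested genes 43.5% rose and 13.9% fell. The list's median log2 fold change was 0.58, against 0.21 for all tested genes. With median-of-ratios factors 5 of the 11 rose and 3 fell, against 22.5% and 26.2% of all tested genes. Plat, encoding the tissue plasminogen activator that cleaves PDGF-C, measured 8.11, 9.56 and 10 FPKM in control samples and 29.5, 53.5 and 56.2 FPKM in stone samples. The groups were far apart, and its log2 fold change was 2.16 (limma, adjusted p = 0.000356). Sparc, a matrix protein that binds PDGF chains, rose from 40.5 ± 7.04 to 144 ± 16.5 FPKM (limma, adjusted p = 8.3e-05). Pcsk6, a proprotein convertase, fell from 8.80 ± 2.68 to 2.82 ± 1.06 FPKM (limma, adjusted p = 0.00359).

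Further genes of the group are named for their roles, with their values known. Plau and St14, which encode the proteases urokinase and matriptase that cleave PDGF-D, rose by log2 fold changes of 0.58 and 0.47 as deposited (limma, adjusted p = 0.00564 and 0.0336). Neither passed with median-of-ratios factors, at 0.32 and 0.22 (limma, adjusted p = 0.0568 and 0.209). Lrp1, a co-receptor of receptor beta, rose from 2.23 ± 0.619 to 7.96 ± 2.20 FPKM, and the co-receptor Nrp1 from 13.6 ± 0.993 to 23.8 ± 2.70 FPKM (SD, n = 3 each). Furin, the convertase that processes PDGF-A and PDGF-B, was at 58.5 ± 0.807 and 54.6 ± 0.658 FPKM. As deposited Furin did not pass (limma, adjusted p = 0.133), but with median-of-ratios factors it was called lower, at -0.35 (limma, adjusted p = 0.00284). The receptor-like gene Pdgfrl and A2m were below the level for testing.

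Downstream of the receptors, 23 of 37 tested signal transducers rose and 1 fell as deposited, against 43.5% and 13.9% of all tested genes. The list's median of 0.28 was near that of all genes. With median-of-ratios factors 12 of the 37 rose and 8 fell, with a median of 0.05. By that scaling 22.5% of all tested genes rose and 26.2% fell. Stat3, a transcription factor that many receptors activate, rose from 16.3 ± 0.483 to 51.5 ± 0.724 FPKM (limma, adjusted p = 8.51e-06). The kinase gene Akt1 rose from 34.0 ± 2.39 to 58.9 ± 3.78 FPKM (limma, adjusted p = 0.000253). Braf, a kinase of the MAP kinase cascade, fell by 0.31 (limma, adjusted p = 0.0212), a call lost with equal FPKM sums (-0.068), with the replicate block (limma, adjusted p = 0.0509) and when sample 1 or 3 of either group was left out.

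Negative regulators of receptor signalling rose in 9 of 14 tested genes and fell in 0, with a median of 0.45. As deposited, 43.5% of all tested genes rose and 13.9% fell. With median-of-ratios factors 5 of the 14 rose and 2 fell, against 22.5% and 26.2% of all tested genes. Ptpn12, a cytoplasmic tyrosine phosphatase, rose from 7.16 ± 0.638 to 14.3 ± 0.801 FPKM. Ptprj, a receptor-type phosphatase that acts on receptor beta, went from a mean of 8.16 to 15.5 FPKM, a log2 fold change of 0.85 ± 0.107 (SE). Both passed (limma, adjusted p = 0.000196 and 0.000698).

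Genes that growth factors induce within minutes to hours were uneven among the controls. Of 19 tested members 9 rose, near the 43.5% called higher over all genes, and 0 fell, against 13.9%. With median-of-ratios factors 7 rose and 0 fell, against 22.5% and 26.2% of all tested genes. Ccl2, a monocyte chemoattractant first described as a gene induced by PDGF, rose from 0.677 ± 0.136 to 15.9 ± 3.13 FPKM (limma, adjusted p = 1.42e-05). Plaur, the urokinase receptor, rose from 1.94 ± 0.259 to 19.5 ± 4.42 FPKM (limma, adjusted p = 3.36e-05).

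Rapidly induced genes such as Fos and Egr1 spread more widely among controls than among stone samples. Fos, named with its values known, measured 0.92, 33.4 and 68.9 FPKM in control samples and 15.1, 17.1 and 25.8 FPKM in stone samples. Egr1, named likewise, measured 3.02, 42.9 and 136 FPKM in controls and 28.0, 39.8 and 41.2 FPKM in stone samples. Control sample 1 was low and control sample 3 high for both genes, and the stone samples lay between these 2. Summed over the list, controls stood at 186, 604 and 1100 FPKM and stone samples at 740, 812 and 870 FPKM. Without control sample 1 the list had 8 genes higher and 5 lower, and its median went from 0.91 to 0.27. Without control sample 3 the median was 1.47, with 9 higher and 0 lower, and with array weights it was 1.83, with 14 higher and 0 lower. Control sample 1 was not set apart in this way for PDGF genes: it was the lowest control for Pdgfc and the highest for Pdgfa. Without it the log2 fold changes of Pdgfa, Pdgfb, Pdgfd, Pdgfra and Pdgfrb were 1.10, 1.47, 0.67, 1.37 and 1.42, and all 5 were called.

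Markers of fibroblasts, which carry PDGF receptors, rose. All 6 tested fibroblast markers rose as deposited, against 43.5% of all tested genes, with a median log2 fold change of 1.91. After quantile normalization, and also without control sample 2, 5 of the 6 were called higher. The list's summed level was 27.3 to 36.5 FPKM in controls and 95.5 to 177 FPKM in stone samples. Col1a1, a fibrillar collagen gene, rose from 2.71 ± 0.569 to 23.6 ± 7.52 FPKM (limma, adjusted p = 0.000163). The markers Dpt, Gli1 and Mfap5 were too low to be tested. No fibroblast marker was at 0 in any sample.

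Pericyte, mesangial and vascular smooth muscle markers were mixed. Of 14 tested markers 8 rose and 2 fell, against 43.5% and 13.9% of all tested genes. With median-of-ratios factors 7 rose and 2 fell, against 22.5% and 26.2%. The summed level of the markers was 73.0 to 83.4 FPKM in controls and 182 to 218 FPKM in stone samples. Tagln, a smooth muscle actin-binding protein, rose from 12.9 ± 1.65 to 44.7 ± 10.3 FPKM (limma, adjusted p = 0.000312). Kcnj8, a potassium channel gene of pericytes, measured 3.37, 2.96 and 3.61 FPKM in control samples and 1.46, 1.80 and 2.02 FPKM in stone samples, and fell by 0.65 (limma, adjusted p = 0.00322). Abcc9, whose product forms a channel with that of Kcnj8 and which is named with its values known, fell by 0.93 (limma, adjusted p = 0.00705). The proteoglycan gene Cspg4 (NG2) and the mesangial integrin gene Itga8, named likewise, had log2 fold changes of 0.38 (limma, adjusted p = 0.0122, lost with median-of-ratios factors at 0.18) and 0.05 (limma, adjusted p = 0.857). The other markers called higher were Rgs5, Notch3, Mcam, Des, Ren1 and Acta2. Their log2 fold changes were 0.64, 1.20, 1.47, 0.76, 1.55 and 1.64, and all of them also passed with median-of-ratios factors. Stone sample 1, the lowest stone sample for both receptor genes, also had the lowest sums among stone samples for most lists. These were the fibroblast, pericyte, endothelial, macrophage, platelet, tubule injury, transducer, protease, VEGF, rapidly induced gene and red blood cell lists. The proximal tubule list and that of thick limb, distal tubule and collecting duct were also lowest there. Stone sample 1 had the highest sums for the podocyte, neutrophil and negative regulator lists. The part of cell makeup in the rise of Pdgfra and Pdgfrb was not tested.

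Markers of cells that make PDGF-B moved as well. Of 9 tested endothelial markers 7 rose and 0 fell as deposited, against 43.5% and 13.9% of all tested genes. With median-of-ratios factors 6 rose and 0 fell, against 22.5% and 26.2%. The endothelial sum was 117 to 193 FPKM in controls and 223 to 319 FPKM in stone samples. Eng, an endothelial co-receptor of the TGF-beta family, rose from 24.8 ± 5.44 to 53.6 ± 7.16 FPKM (limma, adjusted p = 0.00132). Macrophage and monocyte markers rose in 11 of 12 tested genes under both scalings, against the same shares of all tested genes. Their sums were 66.1 to 71.2 FPKM in controls and 180 to 329 FPKM in stone samples. C1qc, a complement gene of tissue macrophages, rose from 9.50 ± 0.495 to 46.5 ± 13.3 FPKM (limma, adjusted p = 0.00014).

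Platelets store PDGF, and their markers were near the floor of the table. Their summed level was 3.67 to 5.32 FPKM in controls and 6.36 to 10.4 FPKM in stone samples, and 6 of the 8 genes were too low to be tested. Pf4, which macrophages also express, rose from 1.44 ± 0.0954 to 6.54 ± 1.77 FPKM (limma, adjusted p = 0.000413). The platelet integrin gene Itga2b stood at 1.29 ± 0.168 and 1.28 ± 0.313 FPKM (limma, adjusted p = 0.952), and Ppbp, Gp1bb, Gp5 and Gp6 were listed at 0 in at least 1 sample. The part of endothelial, macrophage or platelet RNA in the rise of Pdgfb was not tested.

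**Figure D4:**
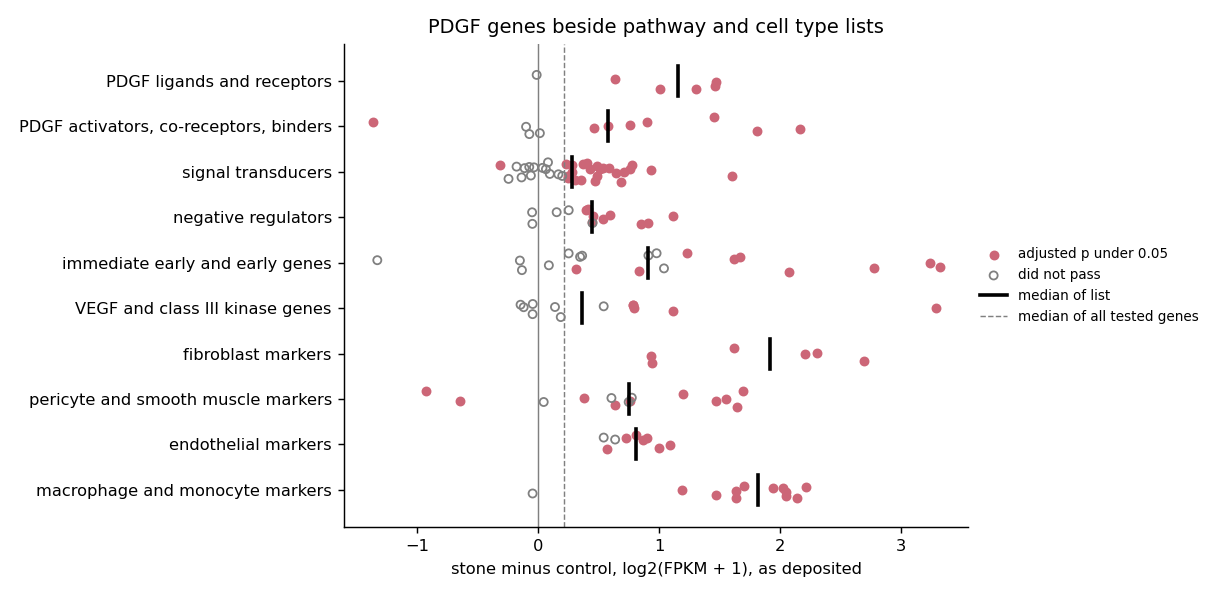
Log2 fold change on log2(FPKM + 1) values as deposited (horizontal axis) of each tested gene in 10 lists; filled points passed at an adjusted p below 0.05, open points did not, bars are list medians and the dashed line is the median of all tested genes. The PDGF median of 1.16 lies between those of immediate early and early genes (0.91) and macrophage and monocyte markers (1.82), the nearest on each side.

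Among the other cell types of the kidney, tubule injury markers rose in 7 of 7 tested genes and podocyte markers in 5 of 6 (4 with median-of-ratios factors and 2 after quantile normalization). Of all tested genes 43.5% rose and 13.9% fell as deposited, and 22.5% and 26.2% with median-of-ratios factors. Sox9, a transcription factor of injured tubules, rose from 0.123 ± 0.0231 to 7.49 ± 0.691 FPKM, and Synpo, an actin-associated podocyte gene, from 6.73 ± 1.45 to 16.6 ± 0.548 FPKM (limma, adjusted p = 9.42e-06 and 0.000455). Of 8 proximal tubule markers 1 rose and 4 fell, among them Kap, which fell by 4.02, while the lactate transporter gene Slc5a12 rose by 0.96. Of 10 markers of thick limb, distal tubule and collecting duct 1 rose and 5 fell, which became 0 and 8 with median-of-ratios factors, 2 and 2 with equal FPKM sums, 0 and 3 without control sample 1, and 1 and 3 without stone sample 3. Pvalb fell by 3.42, and Aqp2 rose by 1.12 (limma, adjusted p = 0.0367), a call lost with median-of-ratios factors (limma, adjusted p = 0.0795), without the filter on low genes (limma, adjusted p = 0.0649) and when any 1 control sample was left out, at 1.05 to 1.16. Without stone sample 3, at 317 FPKM the highest, the Aqp2 change was 0.63 and passed (limma, adjusted p = 0.00307). Neutrophil markers rose in 3 of 3 tested genes, led by S100a9 with a log2 fold change of 2.17. The neutrophil markers Ly6g, Cxcr2 and Mmp8 were too low to be tested. All 5 red blood cell markers fell, with Hbb-bt falling by 2.39, and 0 of the 10 markers of T, NK and B cells were high enough to be tested.

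Genes with a profile close to each PDGF gene were found by the root mean square difference of centred log2(FPKM + 1) values over the 6 samples, among 11965 genes. With 6 samples that fall into 2 groups, a small value mostly reflects a like difference between groups. The 3 nearest to Pdgfb were the endothelial thrombomodulin gene Thbd, at 0.0428, and Mvp and Serpinb6b, at 0.0504 and 0.0579. Those nearest to Pdgfrb were Cald1 (caldesmon) at 0.0532, the pericyte and fibroblast surface gene Cd248 (endosialin) at 0.077, and Ston1 at 0.0905. The gene nearest to Pdgfra was the complement protease gene C1s1, at 0.112. Stap2, the epithelial keratin gene Krt7 and Capn5 came closest to Pdgfa, at 0.0489, 0.0632 and 0.0765. Pdgfd was nearest to Ercc6l2, Pawr and Aff1, at 0.0323, 0.0333 and 0.0341, and Pdgfc to Mttp, Pld1 and Irak2, at 0.0222, 0.044 and 0.0442. Within the family, Pdgfra and Pdgfrb were each other's nearest member, at 0.182.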

How the data were processed

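RNA of 6 whole kidney samples was measured by RNA-seq. Per the labels' protocols, TRIzol RNA was fragmented and the second cDNA strand made with dUTP. Per the submitters' processing notes, HISAT2 2.0.4 and the GRCm38.p6 build were used. For the quantifier, its annotation and its use of strand, nothing is given in the sources used here. Reads of genes antisense to Pdgfa, Pdgfb, Pdgfc or Pdgfra, or of Ddi1 inside Pdgfd, may therefore not be separated.

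The authors deposited FPKM with 2 decimals, 1 column per sample, and 0 columns belong to other samples. Absolute depth is unknown, so no counting interval is given. For 53 genes whose low values were taken as single fragments, a fragment was worth -0.04 to 0.06 log2 units against the other samples. These genes were at 0 in at least 1 sample, with other values of at least 0.15 FPKM and within a ratio of 1.25. That choice itself keeps the differences small, so they cannot show whether the depths were alike.

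Groups were compared two-sided with limma 3.58.1 (R 4.3.3; eBayes with trend) on log2(FPKM + 1) for the 12319 genes averaging 1 FPKM or more. Fold changes on this scale understate those of low genes. Calls use a Benjamini-Hochberg adjusted p below 0.05. Ratios within samples used exact permutation tests (scipy 1.17.1). The scripts were tested on simulated data. Members, lists and motifs were chosen with earlier results of these data known. Named genes are the members, the called genes with the smallest p of each of 17 lists in each direction, the 3 nearest profiles of each member and kidney markers. Some genes that this rule names are not reported here. Some lists share genes (Kdr, Csf1r). Alternatives were other pseudocounts, filters and scalings, array weights, the replicate block and leaving out each sample.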

Additional observations from a re-analysis of the deposited data

How the results depend on the processing

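Pdgfa, Pdgfb, Pdgfd, Pdgfra and Pdgfrb were called higher under each of the 16 alternatives run. Their log2 fold changes ran from 0.74 to 1.27, 1.23 to 1.72, 0.34 to 0.88, 0.96 to 1.60 and 1.18 to 1.72 (limma, largest adjusted p = 0.0155, 0.000401, 0.0196, 0.0179 and 0.00582). Pdgfc was not called under any of them, but its sign changed, at 0.24 with equal FPKM sums and 0.080 with array weights, and between -0.092 and 0.056 when each sample was left out. The log2 ratio of Pdgfra to Pdgfrb also changed sign, between -0.18 and 0.16 when each sample was left out. No other ratio changed direction. Counts over all genes followed the scaling: 5356 higher and 1711 lower as deposited, 2776 and 3222 with median-of-ratios factors, 2763 and 3111 after quantile normalization, and 8440 and 797 with equal FPKM sums, while leaving out each sample gave 4265 to 5242 higher and 1360 to 1697 lower.

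The genes nearest to Pdgfc, all close to 0, also changed sign under some alternatives, not always the same ones. Mttp, at 0.0088 as deposited, was at -0.22, -0.29 and -0.023 with median-of-ratios factors, quantile normalization and equal FPKM sums without Kap, and between -0.073 and 0.067 when each sample was left out. Pld1, at -0.016, was at 0.21 with equal FPKM sums, 0.097 with array weights, and between -0.085 and 0.070 when each sample was left out. Irak2, at -0.029, was at 0.23 and 0.059 under the same settings and between -0.093 and 0.024 when each sample was left out, and was called lower with median-of-ratios factors, at -0.27 (limma, adjusted p = 0.0451), and after quantile normalization, at -0.28 (limma, adjusted p = 0.0411). The cause of these changes other than the scaling itself was not tested.

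Both groups use the same replicate numbers. Deviations of same-numbered samples from their group means correlated across genes at 0.01, -0.22 and -0.04, and those of differently numbered samples at -0.07 to 0.16. With 3 samples a group these values cannot decide whether the numbers pair the samples. With the replicate block 5 PDGF members were called higher and 0 lower, as without it, and 4861 and 1517 of all genes. With same-numbered samples paired, the ratio differences were -0.46 for Pdgfa to Pdgfb, -0.73 for Pdgfc to Pdgfd and -0.72 for ligands to receptors (exact sign-flip p = 0.5, 0.25 and 0.25, where 0.25 is the smallest possible). FPKM carry no depth, so the precision of low members such as Pdgfra rests on 3 samples a group.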

Other observations

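Relatives of the PDGF genes include the VEGF ligands, which share the cystine-knot fold, and the kinases Kit, Flt3 and Csf1r, which share the receptors' structure but bind cytokines of another fold. Of 12 tested genes for VEGF ligands, VEGF receptors, these kinases and their ligands, 5 rose and 0 fell as deposited. Over all tested genes 43.5% rose, a share near that of the list, and 13.9% fell. The list's median log2 fold change was 0.37. With median-of-ratios factors 5 rose and 3 fell, against 22.5% and 26.2% of all tested genes. Csf1, the growth factor of macrophages, rose from 2.34 ± 0.506 to 31.4 ± 1.44 FPKM, and Kitl, the ligand of Kit, from 3.20 ± 0.479 to 6.26 ± 0.510 FPKM (SD, n = 3 each; limma, adjusted p = 9.42e-06 and 0.000976). Csf1r, the receptor of Csf1 and a structural relative of the PDGF receptors, is named with its values known. Csf1r stood at 20.2 ± 2.46 and 20.3 ± 7.15 FPKM (SD, n = 3 each; limma, adjusted p = 0.888), and it was the single tested macrophage marker of 12 that was not called.

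Of the VEGF genes, the following are named with their values known. Vegfa was at 83.8 ± 4.46 and 77.2 ± 6.35 FPKM (limma, adjusted p = 0.223, and -0.37 with adjusted p = 0.0121 with median-of-ratios factors). Vegfd, a ligand of lymphatic endothelium, rose from 3.12 ± 0.326 to 6.15 ± 1.11 FPKM, and the receptor gene Flt1 from 4.92 ± 1.59 to 11.6 ± 1.31 FPKM (limma, adjusted p = 0.00196 and 0.00202).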
